A study of Mus musculus with 16 samples.

Results

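The 6 genes Slc4a4, Slc9a3, Car3, Car4, Car14 and Car15, which code for transporters and carbonic anhydrases of renal bicarbonate reabsorption, were described in mouse kidney. They were taken by symbol, and the group was chosen by function with its UMI levels per library and segment and its methylation regions already known, so those values are a description and the p-values of the members are not independent evidence. All 6 were among the 27998 genes of the single-cell tables. The methylation regions annotated to them, 45 of 86510, were added. The series compared kidneys of C57BL/6 wild-type mice with kidneys of Gulo-/- mice of the same strain. Gulo codes for the last enzyme of ascorbate synthesis, so mice without it depend on vitamin C in the diet. It holds 16 samples, with 2 wild type and 2 Gulo-/- in each of 4 assays, and this account uses the 4 single-cell RNA libraries and the deposited table of differentially methylated regions from whole-genome bisulfite sequencing. Age, sex, diet and the number of mice behind each sample are not among the labels. The kidneys were cut up and mixed before being shared out between the assays, so every group is a mixture of all kidney cell types. The labels do not name the animals, but the 2 single-cell libraries of each genotype were of opposite sex by their transcripts, so they hold different animals and the spread behind each p-value includes sex.

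Proximal tubule cells recover most of the bicarbonate that the glomerulus filters. Slc9a3 (NHE3), the sodium-proton exchanger of the brush border, secretes protons into the lumen, where they meet filtered bicarbonate. Carbonic anhydrases anchored to the membrane, Car4 and Car14 among them, speed the conversion to carbon dioxide, which enters the cell and is hydrated again by the cytosolic enzyme Car2. The bicarbonate then leaves across the basolateral membrane through Slc4a4 (NBCe1), the sodium-bicarbonate cotransporter. Car15 is a further membrane-anchored carbonic anhydrase, and Car3 is a cytosolic one of low activity. The kidney form of Slc4a4 is transcribed from a start inside the gene, and other tissues use the first start.

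The 4 libraries held 10073836 to 88925323 unique molecular identifiers (UMIs, 1 per captured RNA molecule), and 1575, 7006, 1849 and 12403 barcodes were kept in wild type 1, wild type 2, Gulo-/- 1 and Gulo-/- 2. Xist and Ddx3y showed that wild type 1 and Gulo-/- 2 were female and the other 2 libraries male, so each genotype has 1 of each sex. Gulo itself had 0 to 2 UMIs in every library, wild type included, and therefore could not check the labels. Barcodes were assigned to segments by marker UMIs, which used none of the 6 genes. Proximal tubule barcodes were 67.7% and 79.7% of those kept from wild type, and 36.4% and 17.0% of those kept from Gulo-/-. Wild type 1 and wild type 2 shared 986 barcodes, where the other pairs of libraries shared 9 to 282, and the shared barcodes were removed from wild type 2.

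The label of the gene group held for some members and not for others. Slc4a4 and Car14 came mainly from proximal tubule barcodes in 3 of the 4 libraries (86.8% to 97.2% of the UMIs of each gene). In Gulo-/- 2, where proximal tubule barcodes were the smallest share of those kept, the UMI shares were 63.7% for Slc4a4 and 39.4% for Car14. Car4 was found in both the proximal tubule and the thick ascending limb. Car15 was at or below 13.6 CPM in proximal tubule barcodes of every library and came mainly from principal, intercalated and thick ascending limb barcodes in 3 of the 4 libraries. In wild type 2, proximal tubule barcodes gave 41.2% of the Car15 UMIs, the largest share. Car3 was largely a signal of 1 library, and Slc9a3 was close to undetected. The grid of mean levels by segment shows these patterns side by side.

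**Figure D1:**
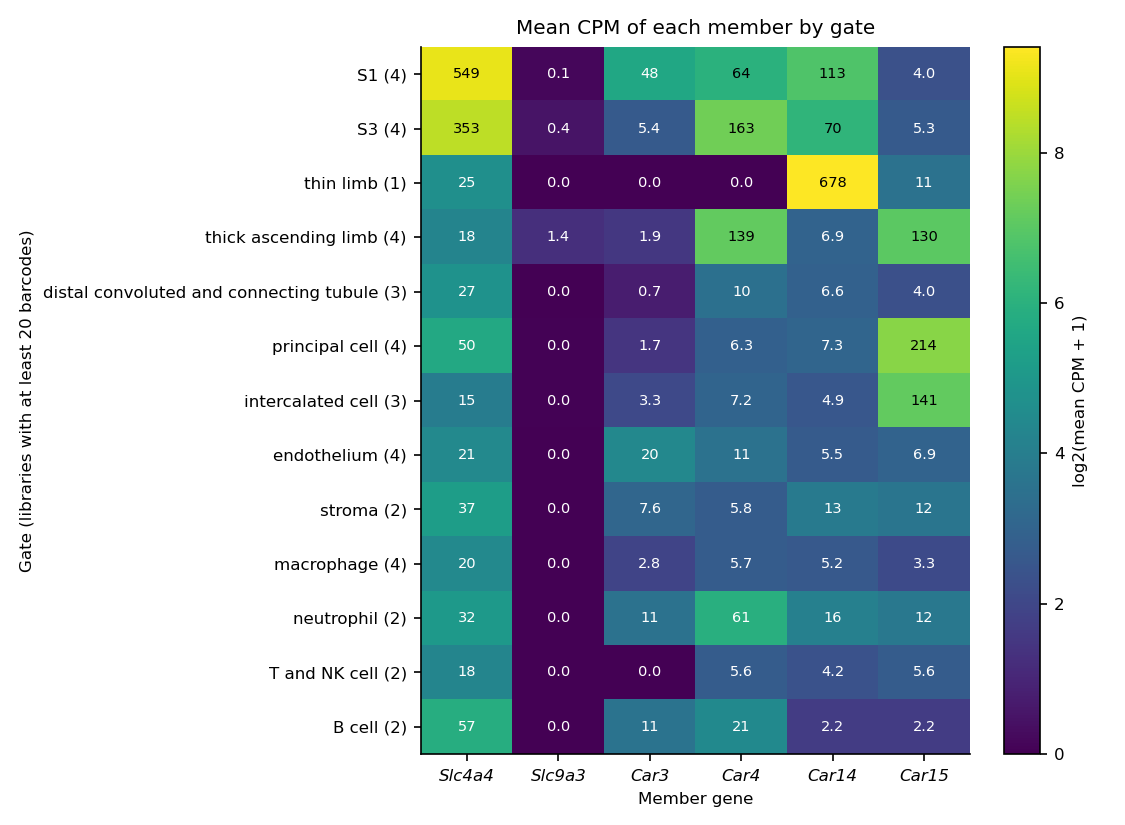
Mean CPM (UMIs scaled to 1e6 UMIs) of each member, columns, in each group of barcodes, rows, over the libraries with at least 20 such barcodes (their number in brackets); colour is log2(mean CPM + 1). Slc4a4 is highest in S1 (549) and S3 (353), Car15 in principal cells (214), and Slc9a3 is at 1.42 or lower in every row.

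Slc4a4, the basolateral exit step, was 2.32-fold higher in Gulo-/- than in wild-type proximal tubule barcodes. Its level was 262 CPM in wild type 1 and 244 CPM in wild type 2, against 609.5 CPM in Gulo-/- 1 and 562 CPM in Gulo-/- 2 (mean 253 ± 13.3 and 586 ± 33.6, SD, n = 2 each). Both Gulo-/- libraries were above both wild-type libraries, and CPM here counts UMIs per 1000000 UMIs of the same barcodes. The log2 difference was 1.06 ± 0.26 (SE), with an adjusted p of 0.107 by edgeR's quasi-likelihood test over 10846 genes, so it did not pass the threshold of 0.05. In that comparison 84 genes, 0.774% of those tested, passed. Groups that do not overlap were common: 35.6% of all tested genes were higher in both Gulo-/- libraries than in both wild-type libraries. DESeq2, with the same counts, gave Slc4a4 an adjusted p of 0.00613. With the sexes paired, edgeR did not pass the threshold, and the alternatives given at the end lay on both sides of it.

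The same order of the genotypes was seen when the proximal tubule was divided into its first and last parts. In S1, the convoluted part where most bicarbonate is recovered, Slc4a4 had 363 and 280.0 CPM (wild type) against 891 and 661 CPM (Gulo-/-). The log2 difference in S1 was 1.16 ± 0.27 (edgeR adjusted p = 0.0762), where 1.57% of 9388 genes were called and 33.6% were higher without overlap. DESeq2 gave 0.00785 for S1. In S3, the straight part, the levels were 212 and 257 CPM in wild type and 467 and 478 CPM in Gulo-/-. The log2 difference in S3 was 0.91 ± 0.29 (edgeR adjusted p = 0.203), where 0.761% of 6574 genes were called and 30.8% were higher without overlap. The genotypes did not overlap in either part, and S1 was above S3 in each of the 4 libraries.

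The share of barcodes with a Slc4a4 UMI at equal depth had the same order. After each barcode was thinned to 1000 UMIs, 18.6% and 19.3% of wild-type proximal tubule barcodes held a Slc4a4 UMI, against 41.8% and 35.1% of Gulo-/- ones. Without thinning the shares were 54.2%, 58.1%, 74.4% and 67.6%, at median depths of 4463, 5336, 4195 and 3119 UMIs. Endothelial barcodes, which should lack the transporter, gave 1.27% to 2.96% after thinning, at median depths of 1870 to 3548 UMIs. No barcode was left out as too shallow.

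Summed over all kept barcodes, Slc4a4 did not separate the genotypes. The sums were 214 and 211 CPM in wild type and 311 and 109 CPM in Gulo-/-, so Gulo-/- 1 was the highest and Gulo-/- 2 the lowest. Gulo-/- 2 was also the library with the smallest share of proximal tubule barcodes, 17.0%. Markers of other cells were present in the proximal tubule barcodes as well. All 6 endothelial markers were detected in each library, with summed levels of 11.0 and 15.2 CPM in wild type and 84.4 and 60.8 CPM in Gulo-/-. The 5 thick ascending limb markers summed to 20.1 and 120 CPM in wild type and 90.7 and 594 CPM in Gulo-/-. Slc4a4 itself was at 13.1 to 26.2 CPM in endothelial barcodes and at 5.96 to 28.6 CPM in thick ascending limb barcodes. The proximal tubule markers summed to 3490 and 4209 CPM in wild type and 4612 and 4082 CPM in Gulo-/-, so those groups overlapped.

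Slc4a4 was low in the distal nephron. In principal cells of the collecting duct its levels were 20.9 and 26.2 CPM (wild type) against 72.0 and 79.2 CPM (Gulo-/-), again without overlap. The log2 difference in principal cells was 1.62 ± 0.40 (edgeR adjusted p = 0.145), where 0.408% of 7356 genes were called and 20.6% were higher without overlap. It passed without wild type 1 (edgeR adjusted p = 0.00912), which had 2 Slc4a4 UMIs in 22 principal cell barcodes. In the thick ascending limb the genotypes overlapped, and the log2 difference was -0.26 ± 0.47 (edgeR adjusted p = 0.997). The tests in S3, thick ascending limb and principal cells were chosen after the levels had been seen.

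**Figure D2:**
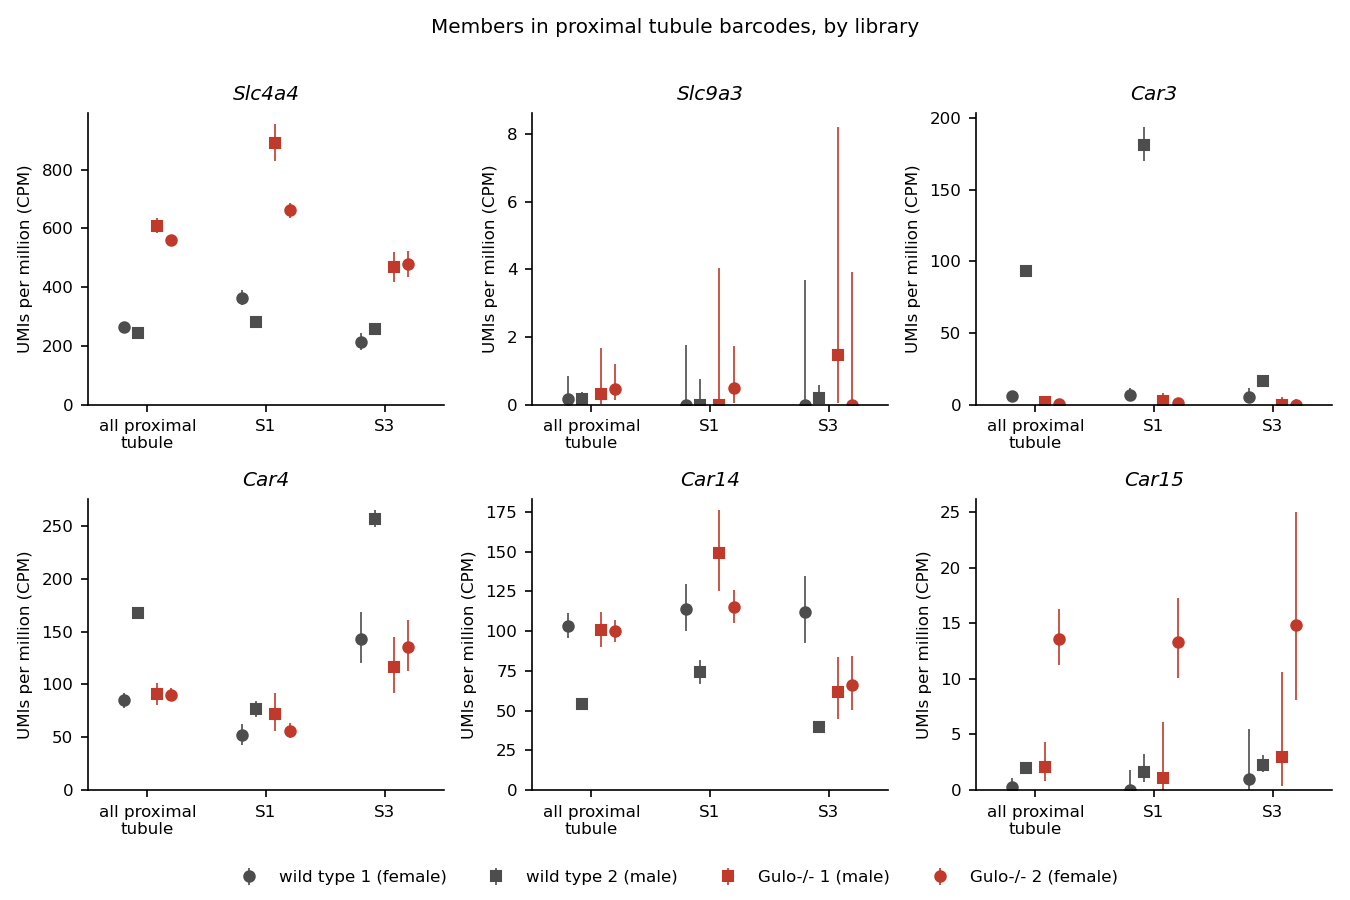
CPM of each member (vertical axis, from 0, a scale for each panel) in all proximal tubule barcodes and in S1 and S3; grey is wild type, red Gulo-/-, circles female, squares male, bars 95% Poisson intervals that cover counting error only. For Slc4a4 both Gulo-/- libraries lie above both wild-type ones in all 3 groups, and Car3 is high in wild type 2 only.

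The methylation table covers 32 regions annotated to Slc4a4, and the one with the largest difference lies at the internal start. The 2 promoter sequences of Slc4a4 are shown because the gene has 2 start sites that differ in CpG content, together with that of Car4, whose promoter is partly covered by a region of its own. Each is the 250 bases before a RefSeq start in GRCm38.p6 (mm10), on the plus strand, read 5′ to 3′, with every CpG in capitals.
Slc4a4, first start: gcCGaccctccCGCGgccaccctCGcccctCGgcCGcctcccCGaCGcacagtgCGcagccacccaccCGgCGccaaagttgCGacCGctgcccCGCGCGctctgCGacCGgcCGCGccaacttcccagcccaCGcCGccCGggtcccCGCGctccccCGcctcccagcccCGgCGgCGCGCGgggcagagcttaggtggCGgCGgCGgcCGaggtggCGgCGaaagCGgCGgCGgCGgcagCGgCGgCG
Slc4a4, internal start: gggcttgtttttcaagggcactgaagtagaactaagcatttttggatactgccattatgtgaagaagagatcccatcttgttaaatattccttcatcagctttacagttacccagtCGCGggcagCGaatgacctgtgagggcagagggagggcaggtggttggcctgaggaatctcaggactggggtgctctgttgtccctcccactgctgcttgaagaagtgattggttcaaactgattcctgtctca
Car4: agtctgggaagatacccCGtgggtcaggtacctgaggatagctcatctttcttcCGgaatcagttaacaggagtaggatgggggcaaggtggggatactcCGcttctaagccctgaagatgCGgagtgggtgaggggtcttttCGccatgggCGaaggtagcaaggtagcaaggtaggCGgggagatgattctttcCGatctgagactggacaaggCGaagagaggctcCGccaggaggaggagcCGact
The first Slc4a4 window, chr5:88887010-88887259, holds 44 CpGs, and 0.539% of 32851 RefSeq promoter windows of that length hold at least as many. The internal window, chr5:89027716-89027965, holds 3 CpGs, a number that 71.0% of the windows reach. The Car4 window, chr11:84957504-84957753, holds 11 CpGs, which 35.6% reach. The motif searched was CG, which reads the same on both strands, and 92.1% of all windows hold it at least 1 time. Sequences of 5 of the 6 members were matched by symbol.

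At the internal start, the deposited region chr5:89028121-89028537 holds 14 CpGs and is annotated to the promoter. Its methylation on side 1 minus that on side 2 was -48.4 percentage points. The sides are numbered in the table without a genotype, the difference is a pooled value with no spread between samples, and the coverage behind it is unknown. The region spans the start that the authors' annotation gives, position 89028134, and begins 155 bases past the end of the internal window printed above. Of 7867 promoter regions in the table, 2 were as low on side 1 relative to side 2, this one included. Side 1 was lower in 78.5% of promoter regions, and the median difference of promoter regions was -13.6 points. No deposited region overlapped the CpG-rich window of the first start.

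The direction along the Slc4a4 gene was not even. Of the 4 regions before the first start, 1 was lower on side 1, and of the 8 between the first and the internal start 5 were. From the internal start onward 19 of 20 regions were lower on side 1, with a median of -22.7 points. In the whole table, side 1 was lower in 53.8% of regions and in 59.4% of intronic ones. The exception after the internal start was an exonic region of 11 CpGs that was 15.2 points higher on side 1. Neighbouring regions share their cells and libraries and are not independent. The genes with at least 32 regions made up 0.543% of 18425 genes with any region, with no account taken of gene length.

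**Figure D3:**
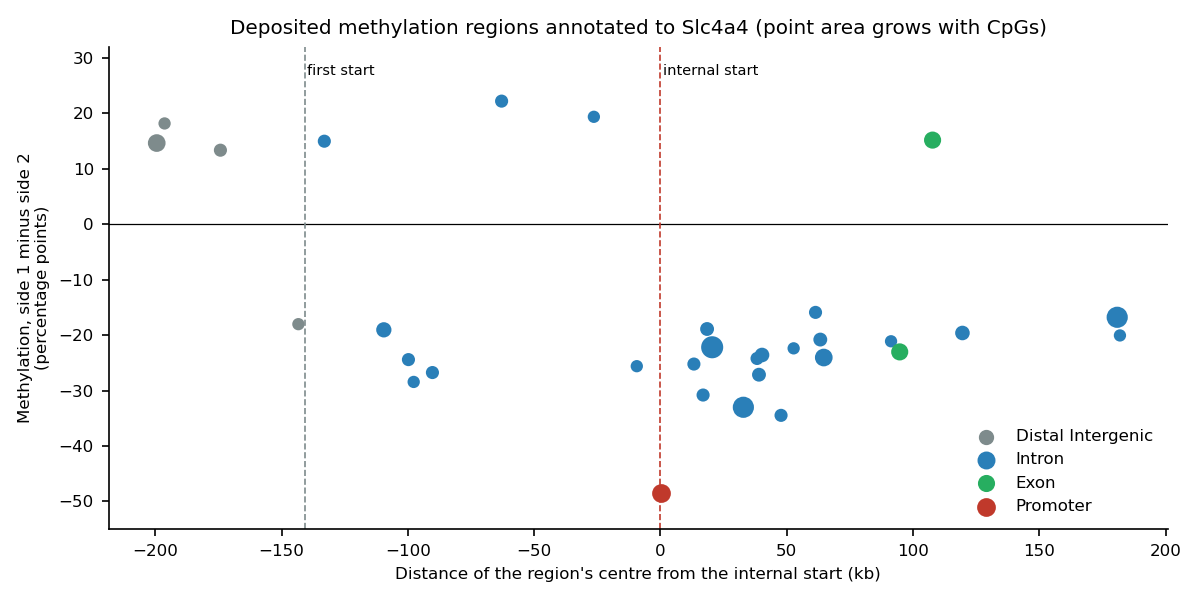
Methylation on side 1 minus side 2 (percentage points) of the 32 regions annotated to Slc4a4 against the distance of each region's centre from the internal start (kb); colour gives the annotation, point area grows with the number of CpGs, and dashed lines mark the 2 starts. The promoter region sits at the internal start at -48.4, and all but 1 of the regions at or after that start are below 0.

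Slc9a3, the apical proton exit step, was at the limit of detection. Its UMIs over all kept barcodes numbered 1, 6, 5 and 22 in wild type 1, wild type 2, Gulo-/- 1 and Gulo-/- 2. Proximal tubule barcodes held 1, 6, 1 and 4 of them in that order, or 0.151, 0.165, 0.301 and 0.468 CPM. The 95% Poisson intervals of the 2 outermost libraries, 0.00382 to 0.841 and 0.128 to 1.20 CPM, overlap. The gene did not pass the filter on low counts in any segment, and no difference was detectable with so few UMIs. Why so few were counted was not tested. Thick ascending limb barcodes held 12 UMIs in Gulo-/- 2. Methylation was lower on side 1 in all 6 regions annotated to Slc9a3. The largest difference was in intron 1 of 15, chr13:74138867-74139095, with 4 CpGs and -35.2 points. One of the 6, chr13:74173771-74174225, lies in an exon of another gene.

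Car4, the luminal carbonic anhydrase held by a lipid anchor, overlapped between the genotypes in the proximal tubule. The wild-type libraries held 85.0 and 168 CPM and the Gulo-/- libraries 90.7 and 90.1 CPM (log2 difference -0.61 ± 0.30, edgeR adjusted p = 0.303). Wild type 2 alone was high. S3 barcodes were 1928 of its 5584 proximal tubule barcodes. They were 150 of 1067 in wild type 1, 103 of 673 in Gulo-/- 1 and 197 of 2103 in Gulo-/- 2. The part of this make-up in the Car4 level was not tested. In S3 wild type 2 was again the highest, with 257 CPM against 143 CPM in wild type 1 and 116 and 135 CPM in Gulo-/- (log2 difference -0.78 ± 0.32, edgeR adjusted p = 0.292). Without wild type 1 both differences passed, with edgeR adjusted p of 0.0173 for the proximal tubule and 0.00995 for S3. In S1 all 4 libraries lay between 51.7 and 76.2 CPM (log2 difference -0.13 ± 0.28, edgeR adjusted p = 0.821). S3 was above S1 in each library.

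In the thick ascending limb Car4 fell in Gulo-/-. The libraries held 286 and 131 CPM in wild type and 35.7 and 104 CPM in Gulo-/-, from 48, 142, 14 and 2113 UMIs, without overlap. The log2 difference was -1.38 ± 0.33 (edgeR adjusted p = 0.00253), where 1.87% of 6300 genes were called (0.937% lower) and 12.4% were lower without overlap. The call was lost with DESeq2 (adjusted p = 0.225), without wild type 1 (edgeR adjusted p = 0.496) and without Gulo-/- 1 (edgeR adjusted p = 0.353). At 1000 UMIs per barcode, the share with a Car4 UMI was 22.2% and 10.1% (wild type) against 3.39% and 8.55% (Gulo-/-), and 0% to 0.796% in endothelium, where 0 of 90 barcodes allows a share of up to 3.33%. The unthinned shares were 42.2%, 41.5%, 8.47% and 27.7%, at median depths of 2724, 5026, 2980 and 5059 UMIs. Wild type 1 rested on 45 barcodes and Gulo-/- 1 on 118. Proximal tubule markers in these barcodes summed to 107 and 499.7 CPM in wild type and to 107 and 138 CPM in Gulo-/-. Their part in the Car4 difference was not tested.

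A Car4 promoter region, chr11:84957216-84957558, held 14 CpGs and differed by -15.7 points. It covers the first 55 bases of the Car4 window printed above, with 1 of the 11 CpGs in full. The C of the next CpG is the last base of the region. The largest difference among the 4 regions annotated to Car4 was in exon 8 of 8, chr11:84965258-84965701, with 7 CpGs and -25.7 points. A region beyond the gene was also lower on side 1. The fourth region, 15.2 points higher on side 1, lies in an intron of another gene.

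Car14, the membrane-spanning luminal enzyme, overlapped between the genotypes in the proximal tubule as a whole and in S3, and passed the test in neither, nor in S1. In proximal tubule barcodes the level was 103 CPM in wild type 1, 54.0 CPM in wild type 2 and 100.4 ± 0.469 CPM (SD, n = 2) in Gulo-/- (log2 difference 0.19 ± 0.36, edgeR adjusted p = 0.803). Wild type 2 was the low library here and in S1, where the levels were 114 and 74.0 CPM in wild type and 149 and 115 CPM in Gulo-/- (log2 difference 0.37 ± 0.29, edgeR adjusted p = 0.490). The S1 levels did not overlap, as held for the 33.6% of genes higher there, and the nearest libraries were Gulo-/- 2 and wild type 1. In S3 wild type held both the highest and the lowest level, 112 and 39.7 CPM, and Gulo-/- lay between them at 61.9 and 66.0 CPM (log2 difference -0.31 ± 0.51, edgeR adjusted p = 0.813). Thin limb barcodes of Gulo-/- 2, the 1 library with at least 20 of them, held 678 CPM over 36 barcodes. The single region annotated to Car14, chr3:95915311-95915654, lies outside the gene and had 8 CpGs and was 17.3 points higher on side 1.

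Car3, the cytosolic enzyme, was nearly all in wild type 2. Its proximal tubule level was 5.73 CPM in wild type 1, 93.1 CPM in wild type 2, 1.81 CPM in Gulo-/- 1 and 0.586 CPM in Gulo-/- 2, from 38, 3394, 6 and 5 UMIs. Both wild-type libraries were above both Gulo-/- libraries, as were 19.0% of all tested genes. The log2 difference was -5.74 ± 2.18 (edgeR adjusted p = 0.323), and the wild-type libraries differed from each other more than wild type 1 did from Gulo-/-. Within wild type 2, S1 held 182 CPM and S3 16.6 CPM. Of the 70 Car3 UMIs of Gulo-/- 1, 61 came from 1 endothelial barcode. Of the 2 regions annotated to Car3, both lower on side 1, the larger difference was in exon 6 of 7, chr3:14869996-14870360, with 14 CpGs and -22.1 points.

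Car15 rose in Gulo-/- principal cells, the water- and sodium-reabsorbing cells of the collecting duct. The libraries held 0 and 8.27 CPM in wild type and 604 and 243 CPM in Gulo-/-, from 0, 6, 486 and 2316 UMIs in 22, 69, 141 and 1117 barcodes. With 0 UMIs, wild type 1 allows up to 31.4 CPM (3 UMIs), which is below both Gulo-/- libraries. The log2 difference was 5.94 ± 0.70 (edgeR adjusted p = 0.00158), rank 3 of 7356 genes by p; 0.245% of those genes were called higher and, as given above, 20.6% were higher without overlap. It passed with DESeq2 and without each library in turn. At 1000 UMIs per barcode, 0% and 1.45% of wild-type principal cell barcodes held a Car15 UMI, against 41.1% and 19.2% of Gulo-/- ones. Wild type 1 had 0 of 22, which allows a share of up to 13.6%, and unthinned the 4 shares were 0%, 8.70%, 75.9% and 69.8%. Median depths were 3224, 8911, 5317 and 7634 UMIs, and 0% to 1.48% of endothelial barcodes held a Car15 UMI after thinning.

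The principal cell barcodes of the 4 libraries were not alike in other markers. The 4 principal cell markers were detected in each library and summed to 6887 and 17139 CPM in wild type and to 25601 and 29390 CPM in Gulo-/-. Among them Aqp2, the water channel of these cells, had 3276 and 10285 CPM (wild type) against 16858 and 21748 CPM (Gulo-/-). Markers of the distal convoluted and connecting tubule summed to 5286 CPM in wild type 1 and to 874 to 998 CPM in the other 3 libraries. Slc12a3, Pvalb, Trpm6 and Slc8a1 of that list were at 0 in wild type 1. The 5 intercalated cell markers summed to 0 and 179 CPM in wild type and to 276 and 570 CPM in Gulo-/-. The part of these differences in the Car15 result was not tested, and without wild type 1 the log2 difference was 5.73.

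In intercalated cells and the thick ascending limb the genotypes overlapped for Car15. Intercalated cells, which secrete acid or base, held 302 and 70.4 CPM in wild type and 193 and 159 CPM in Gulo-/-. Wild type 1 had 17 UMIs in 11 barcodes there, fewer than the minimum of 20 barcodes, and 11 of the UMIs were in 1 barcode. Wild type 2 was below both Gulo-/- libraries, so the overlap in intercalated cells rests on wild type 1. Thick ascending limb barcodes held 107 and 25.9 CPM in wild type and 306 and 81.0 CPM in Gulo-/- (log2 difference 1.86 ± 1.47, edgeR adjusted p = 0.997). The difference in the thick ascending limb passed without wild type 1 (edgeR adjusted p = 0.000311) and without Gulo-/- 2 (2.74e-06). Proximal tubule barcodes held 0.302 and 2.002 CPM in wild type and 2.11 and 13.6 CPM in Gulo-/- (log2 difference 2.46 ± 1.07, edgeR adjusted p = 0.308), without overlap, as for the 35.6% of genes higher there. In S3 the levels were 0.994 and 2.29 CPM (wild type) against 2.95 and 14.9 CPM (Gulo-/-), also without overlap, as for 30.8% of the genes tested there. In S1 the genotypes overlapped, at 0 and 1.64 CPM (wild type) against 1.10 and 13.3 CPM (Gulo-/-). Gulo-/- 1 had 7 Car15 UMIs in proximal tubule barcodes, with 1 of them in S1 and 2 in S3. Car15 did not pass the low-count filter in S1 or S3. Intercalated cell markers in those proximal tubule barcodes were also highest in Gulo-/- 2, at 135 CPM against 2.41 to 27.8 CPM elsewhere. Over all kept barcodes Car15 had 4.37 and 4.09 CPM (wild type) against 96.7 and 85.9 CPM (Gulo-/-). No test was run on these sums, and no share over all genes was counted for them. Principal cells were 1.40% and 0.985% of wild-type and 7.63% and 9.01% of Gulo-/- barcodes. No region was annotated to Car15.

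**Figure D4:**
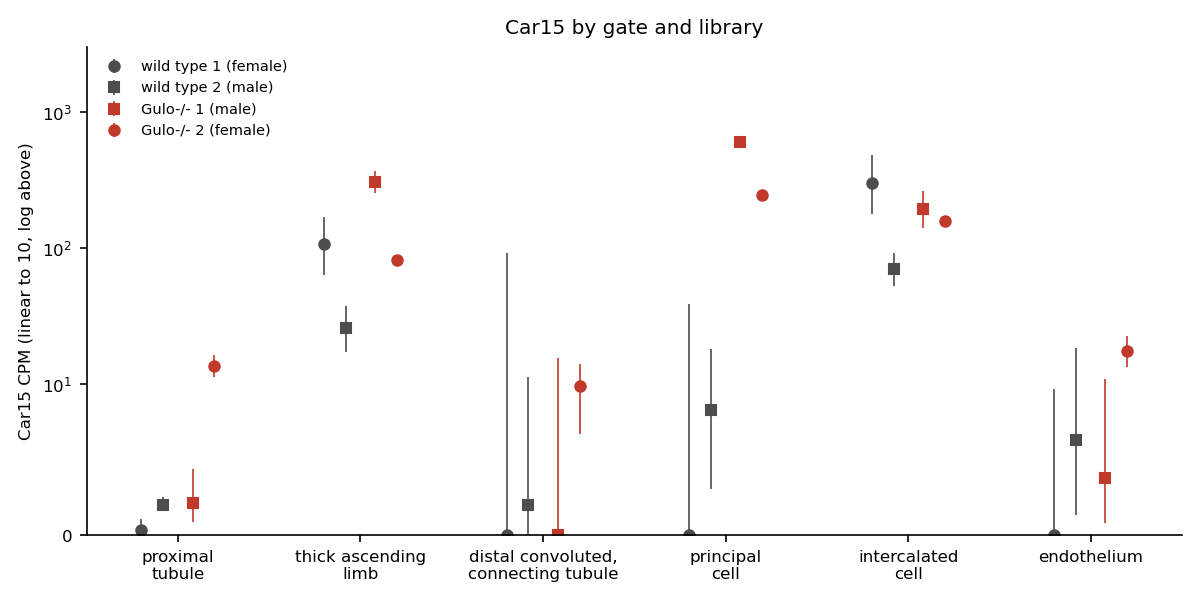
Car15 CPM (linear to 10, logarithmic above) in 6 groups of barcodes; grey is wild type, red Gulo-/-, circles female, squares male, bars 95% Poisson intervals that cover counting error only. In principal cells the Gulo-/- libraries are at 604 and 243 and the wild-type ones at 0 and 8.27. In intercalated cells the genotypes overlap only through wild type 1, which has 11 barcodes there.

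The authors' deposited table of cluster markers comes from the single-cell data of this series. It is therefore not independent of the levels above. Slc4a4 was listed for the clusters PT1 and PT2, Car14 for PT2 and Car4 for PT3. Their log fold changes, taken as natural logs, were 0.815, 1.15, 0.444 and 0.657 in the authors' deposited table. In the same authors' deposited table Car15 was listed for CD-PC (1.37) and CD-IC1 (0.813), and Slc9a3 and Car3 were not listed. Car4 and Car15 were listed for no further cluster, although both were also found in thick ascending limb barcodes here.

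Other genes of the pathway were counted from 6 lists of 47 genes in all. In proximal tubule barcodes 36 passed the low-count filter and edgeR called 0, with 11 at an unadjusted p under 0.05, and DESeq2 called 5, where it called 3.99% of all genes. In S1 edgeR called 2 of 27, both lower in Gulo-/- as were 0.831% of all genes tested there, and DESeq2 called 5, with 5.7% called of the 3564 genes that it gave an adjusted p. One was Car2, the cytosolic carbonic anhydrase, at 740.4 and 794 CPM in wild type and 275 and 359 CPM in Gulo-/- (log2 difference -1.39 ± 0.23, edgeR adjusted p = 0.0401). The other was Pck1, the gluconeogenic enzyme that is part of proximal ammonia genesis, at 994 and 706 CPM in wild type and 293 and 167 CPM in Gulo-/- (log2 difference -2.004 ± 0.35, edgeR adjusted p = 0.0429). Neither overlapped between the genotypes, as held for 21.6% of all genes tested in S1 that were lower. In thick ascending limb barcodes edgeR called 3 of 20, Car4, Pck1 and Pdzk1, all lower in Gulo-/- beside 0.937% of all genes tested, and DESeq2 called 1, where it called 0.304% of the 3613 genes given an adjusted p. Pck1 there had 71.5 and 85.0 CPM in wild-type and 15.3 and 13.8 CPM in Gulo-/- barcodes (edgeR adjusted p = 3.18e-08), beside the proximal tubule marker sums given above. The S1 calls of Car2 and Pck1 were lost without Gulo-/- 2 (edgeR adjusted p = 0.141 and 0.151), and that of Car2 also without Gulo-/- 1 (edgeR adjusted p = 0.141).

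Among the 16 carbonic anhydrases, 10 were tested in the proximal tubule, and 4 of the 10 were higher in Gulo-/- (median log2 difference -0.65, beside 0.03 over all genes tested). Car2 had a log2 difference of -1.09 there and Car12, a membrane-bound enzyme, of 0.81 (edgeR adjusted p = 0.121 and 0.139). Of the basolateral exit list 4 of 5 were tested and 3 were higher, with a median of 0.88. Besides Slc4a4 these were the low-level Slc4a2 and Slc4a7, and Kcnk5, a potassium channel, had 21.7 and 35.3 CPM (wild type) against 26.5 and 19.0 CPM (Gulo-/-). Slc9a8, the highest of the apical proton exit list, had 10.9 and 17.8 CPM (wild type) against 9.95 and 10.4 CPM (Gulo-/-). Of the 9 scaffolds and regulators all were tested and 5 were higher (median 0.11). Slc9a3r1 (NHERF1), which tethers NHE3 to the cytoskeleton, lay between 222 and 266 CPM in all 4 libraries. Pdzk1, another scaffold of the brush border, had 906 and 624 CPM in wild type, with 454 and 384 CPM in Gulo-/- (log2 difference -1.03, edgeR adjusted p = 0.152). The distal acid-base transporters Rhcg, Rhbg and Slc26a4 stayed under 26 CPM in these barcodes, and 5 of the 6 tested were higher in Gulo-/-. Gulo-/- 2, the library highest in intercalated cell markers there, was the highest for each of these named genes. Gulo-/- 1 was below wild type 2 for Rhbg (3.92 against 4.47 CPM) and Slc26a4 (0.904 against 2.77 CPM). For Rhcg it was above (7.54 against 6.97 CPM). The part of the intercalated cell markers in these levels was not tested.

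The genes most like each member were sought over 39 sums of a segment in a library, by Pearson correlation of log2(CPM + 1). The sums share libraries, depth and barcodes of like type, so the values are a description. For Slc4a4 the 3 most alike were Tcea3 (r = 0.859), Iyd (0.853) and Folh1 (0.843). For Car4 they were Nr1h4 (0.831), Itgb8 (0.829) and Asb9 (0.805), and for Car14 they were Folr1 (0.847), Bdh2 (0.822) and Fmo2 (0.820). For Car15 they were Plet1 (0.786), Foxq1 (0.786) and Wapl (0.759). Slc9a3 and Car3 had a mean below 10 CPM over the sums, and no gene was named for them.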

How the data were processed

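Single-cell RNA libraries of 2 wild-type and 2 Gulo-/- kidney samples were analysed from UMI counts per gene and barcode, which the authors deposited as unfiltered whole numbers. The submitters' processing notes name Seurat 2.3.4, MACS2 2.1.2 and the mm10 build; the counting tool and the caller of methylation regions are not given in the sources used here. For methylation, the deposited table holds the difference in mean methylation between 2 numbered sides, printed in percentage points, and a summed test score that was not used. The levels on each side cannot be tied to a genotype and are not used here. The marker table that the authors deposited gives p-values, which were not used, and the natural log fold change of a gene in each cluster against the other cells, per the file headers. The MeRIP and bulk RNA samples were not analysed here.

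A barcode was kept when it held 500 UMIs or more, 200 genes or more and no more than 50% mitochondrial UMIs. Scrublet scores in scanpy (1.11.5) removed a top share of 0.8% per 1000 barcodes as doublets, which took out 20, 559, 28 and 1559 barcodes. A barcode was assigned to a segment with at least 3 UMIs from at least 2 of its markers and 3 times those of any other segment; S1 and S3 needed 2 UMIs of their own markers. Of 77 markers, 2 were not in the table. UMIs were summed per library and segment and tested with edgeR 4.0.16 (TMM scaling, filterByExpr, robust quasi-likelihood F test) under R 4.3.3, with Benjamini-Hochberg adjustment over all genes tested and a threshold of 0.05. DESeq2 1.42.0 was an alternative. The edgeR script was tested on simulated data before use. UMI intervals are 95% Poisson intervals and, like the limit of 3 counts, cover counting error only. Levels are UMIs captured at one end of transcripts. Levels of different genes were ranked only within the pathway lists, to choose and describe the genes named.

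The members, the marker and pathway lists and the tests were chosen with earlier results of these data known, so the tests describe these libraries and are not independent support. Named genes were the 6 members, every pathway gene called in proximal tubule or S1 barcodes, otherwise up to 3 per list with the highest mean CPM (not all are printed), the 3 most similar genes per member, and the promoter region and largest difference per member. Car12, Slc4a7 and the thick ascending limb calls were named after their values were seen. Alternatives covered the tool, scaling, filters, gates, blocks and leaving out each library. Same-numbered samples did not deviate together (correlation of deviations -0.12 to 0.03 over 5 segments).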

Additional observations from a re-analysis of the deposited data

Results flagged for a closer look

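For 3 members the female pair (Gulo-/- 2 against wild type 1) and the male pair (Gulo-/- 1 against wild type 2) moved in opposite directions. With 1 library per sex and genotype, none of these differences between the sexes was tested, and sex cannot be told apart from the individual library.

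In proximal tubule barcodes the log2 ratio of Car4 CPM, Gulo-/- over wild type, was 0.084 in the females and -0.88 in the males. In S1 the Car4 ratios were 0.12 and -0.074. For Car14 the log2 ratio in proximal tubule barcodes was -0.045 in the females and 0.90 in the males. In S3 the Car14 ratios were -0.77 and 0.64. For Car15 in the thick ascending limb the female log2 ratio was -0.40 and the male one 3.56. The log2 ratio of Slc4a4 was above 0 in both sexes in the proximal tubule (1.10 and 1.32), in S1 (0.87 and 1.67) and in S3 (1.17 and 0.86).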

How the results depend on the processing

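Counts of called genes moved more than the members' values. In the proximal tubule 84 genes were called by edgeR, 433 by DESeq2, 1185 with no low-count filter, 45 with a mitochondrial limit of 25%, and 1 to 1218 when a library was left out; the low end came without Gulo-/- 2 and without Gulo-/- 1 (3). In S1 the count of 147 became 945 with no low-count filter, 75 with the mitochondrial limit of 25%, 235 with shared barcodes kept, and 0 to 192 when a library was left out (0 without Gulo-/- 2, with 1710 at an unadjusted p under 0.05, and 49 without Gulo-/- 1). In S3, 50 became 116 with DESeq2 and 0 to 643 with a library left out; the 0 came without either Gulo-/- library, with 473 and 631 at an unadjusted p under 0.05. In the thick ascending limb, 118 became 11 with DESeq2 and 26 to 143 with a library left out, lowest without wild type 2. In principal cells, 30 became 46 to 250 with a library left out. The S3, thick ascending limb and principal cell tests and their alternatives were chosen after seeing the data.

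What the replicate numbers stand for is not among the labels. Same-numbered samples did not deviate together, but they are of opposite sex, so this cannot tell a batch that they share from sex. The libraries numbered 1 held 10208946 (wild type) and 10073836 (Gulo-/-) deposited UMIs. Those numbered 2 held 61688164 and 88925323. A shared batch was not tested. With the replicate block 633 genes were called in the proximal tubule and 119 in S3, and Slc4a4 had an edgeR adjusted p of 0.0353 in the proximal tubule and 0.0488 in S1. The crossed pairing, which pairs the sexes, called 0 in the proximal tubule (2000 at an unadjusted p under 0.05), 2 in S1, 190 in S3 and 65 in the thick ascending limb, and Slc4a4 had 0.208 in the proximal tubule. Over all alternatives its adjusted p there ran from 0.00417 to 0.479.

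Of 172 alternatives of a member's log2 difference, 144 kept direction and side of the threshold, 21 newly passed, 3 no longer passed (all Car4 in the thick ascending limb) and 4 reversed. Leaving out a library, Car14 in the proximal tubule ran from -0.28 (without wild type 2) to 0.79, Car4 in S1 from -0.37 to 0.14 (without wild type 2) with 0.12 without Gulo-/- 2, and Car14 in S3 from -0.96 to 0.55 (without wild type 1). The cause of these moves was not tested. Of the 45 member regions 36 were lower on side 1, and 10 of the 12 with at least 10 CpGs. Slc9a3 passed the low-count filter in no segment, so no difference was detectable with so few UMIs.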
